A study of Sus scrofa domesticus with 4 samples.

Results

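G protein, cAMP, phosphatase and MAP kinase signalling genes were followed in the anterior pituitary of 8 mature gilts (female pigs before a first litter) bred from Large White and Polish Landrace. The members were all genes whose symbol in the pig RefSeq annotation begins with GNA, GNB, GNG and a digit, RGS, ADCY and a digit, PRKA, PRKC, PDE, PPP or MAPK. Of 99 array probes for 45 such genes, 94 probes for 42 genes were well above background, as the scanner software marks it, in at least 4 of 8 channels. These 42 genes were followed among 18883 features tested in all. The genes left out were ADCY10, the soluble adenylyl cyclase, PDE6H, a retinal phosphodiesterase subunit, and PRKAG3, a subunit of AMP-activated kinase, each above background in at most 1 channel. G beta subunits, protein kinase C, the catalytic subunits of protein kinase A and the transmembrane adenylyl cyclases are not analysed here, since none was among the 42.

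The pregnant group was 4 naturally mated gilts collected on days 15 to 16 of pregnancy, in which conceptuses were seen. The cyclic group was 4 gilts on days 15 to 16 of the estrous cycle. The labels give no other treatment. Each of 4 oligonucleotide arrays read in both colours carried 1 pregnant and 1 cyclic animal, so an array is 1 independent pair, and the number of arrays limits the precision. By the label fields, pregnant RNA carried Cy3 (green) on arrays 1 and 3 and Cy5 (red) on arrays 2 and 4, whereas the labelling protocol's text gives Cy3 to the pregnant animals throughout. The label fields were followed here, and the authors' deposited log2 ratios have the signs that the label fields give on all 4 arrays. The other reading would turn the sign of arrays 2 and 4.

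Receptors of the seven-helix family act through heterotrimeric G proteins. The alpha subunit Gs stimulates adenylyl cyclase, Gi inhibits it, and Gq opens the phospholipase C and calcium branch. RGS proteins switch alpha subunits off, cAMP acts through protein kinase A until phosphodiesterases break it down, and serine and threonine phosphatases reverse the phosphorylation. In the pituitary, growth hormone-releasing hormone signals through Gs, gonadotropin-releasing hormone through Gq and MAP kinases, and dopamine through Gi in prolactin cells.

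All 7 hormone genes that define the gland's secretory cells (GH1, PRL, POMC, CGA, LHB, FSHB and TSHB) were above background in all 8 channels. Their mean log2 ratio of pregnant over cyclic was -0.71, 0.84, -0.68 and -0.68 on arrays 1 to 4, with array 2 apart. TSHB was the widest of them, and over the other 6 genes the means were -0.55, 0.23, -0.29 and -0.09, with PRL and LHB below 0 on array 2. Of 4 markers of the intermediate and posterior lobes 2 could be tested, in opposite directions. OXT, the oxytocin precursor, stood at -0.36 ± 0.16, and PCSK2, a prohormone convertase, at 0.40 ± 0.49 with 1.43, -0.55, -0.82 and 1.56. The part of these markers in the results below was not tested. Between 50.4% and 60.4% of probes were well above background in the pregnant channels and between 52.6% and 66.5% in the cyclic channels. Array 2 had the widest ratios, with an SD of 0.503 over all features against 0.331 to 0.396 on the others. In these bulk samples fewer cells of a type and less RNA per cell cannot be told apart.

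Values are log2 ratios of pregnant over cyclic, so 0 is no difference. Estimates are given with the standard error of a limma fit over 4 arrays that allows for a dye effect in each gene. No member passed an adjusted p of 0.05 (limma, Benjamini-Hochberg over all features, 0 of 42), and neither did any other feature (0 of 18883, which is 0%). A looser count was therefore used, an unadjusted limma p under 0.05 together with a change of 1.2-fold or more. The p alone held for 7.22% of all features and both together for 7.03%. For the members the looser count held 2 genes on the higher side and 3 on the lower side, 4.76% and 7.14% of the 42, where the same counts over all features were 2.93% and 4.1%. On the higher side stood PRKAB2 and PPP2R2B, and on the lower side PPP2R1A, MAPK12 and PPP1R10. All 5 had an adjusted p of 0.647 (limma), the lowest of any member, and several members outside the looser count, such as PPP2CA, PPP2R5D and GNAI2, shared that value. An exact sign-flip test over 4 arrays cannot go below 0.125, so it was not used for single genes. Over all features the looser count held 553 higher and 774 lower, and with each array centred on its median 203 and 831.

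**Figure D1:**
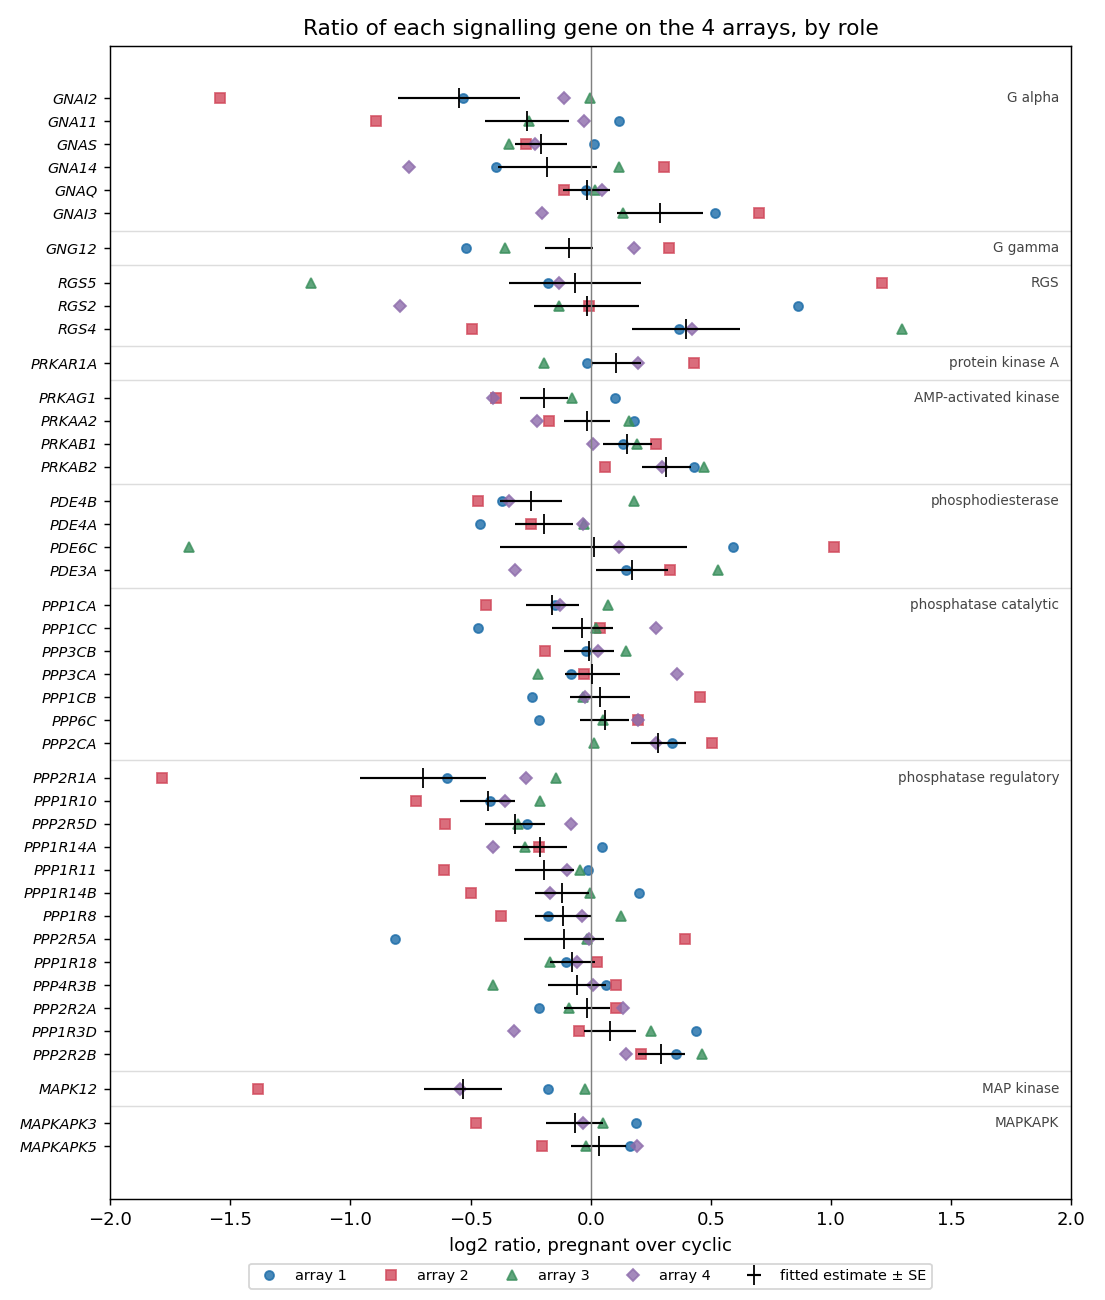
Log2 ratio of pregnant over cyclic for each of the 42 genes, grouped by role, with 1 symbol per array and a bar at the fitted estimate ± its standard error. Most estimates lie near 0, PPP2R1A has the lowest at -0.70, RGS4 the highest at 0.40, and the square of array 2 is often the symbol farthest from 0.

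The median estimate of the 42 members was -0.06 and that of all features -0.02. Below 0 stood 28 members, 66.7%, against 54.4% of all features. With pregnant RNA in Cy3 on every array the shares turned to 14 members, 33.3%, and 51.7% of all features. All 4 arrays had 1 sign for 11 members, 4 above 0 and 7 below, which is 26.2% against 13.8% of all features (6.41% above and 7.41% below). By the other dye reading it is 6 members, 14.3% against 20%. The median spread between arrays (SD) was 0.26 for the members and 0.27 for all features. Array 2 was the array farthest from 0 for 21 of the 42 members, 50% against 42.6% of all features. Pearson's r between arrays, taken across the 42 genes, which are not independent replicates, was 0.292 for arrays 1 and 2, 0.249 for arrays 2 and 4, and -0.277 for arrays 2 and 3. Across all features the same pairs had 0.221, 0.322 and -0.272. The remaining pairs were nearer 0, from -0.006 to 0.086 across the members and from -0.033 to 0.101 across all features.

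**Figure D2:**
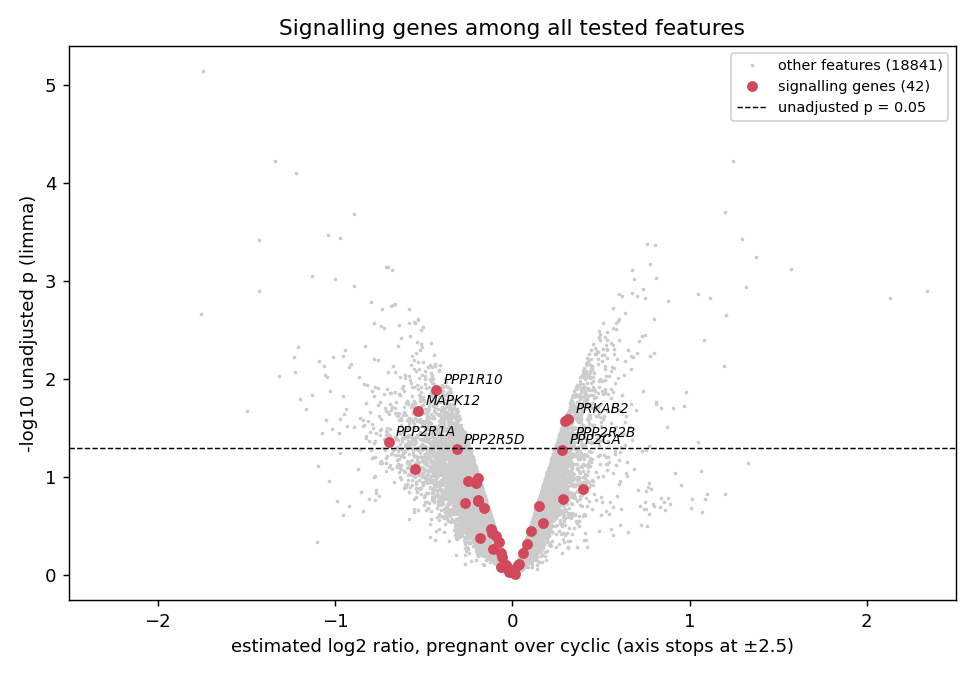
Estimated log2 ratio of pregnant over cyclic (x axis) against -log10 of the unadjusted p-value from limma (y axis) for 42 signalling genes (red) and all other features (grey). The 5 genes of the looser count above the dashed line at 0.05 lie inside the cloud of other features.

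PP2A is the phosphatase built from a catalytic subunit, a scaffold and an exchangeable regulatory subunit that selects its targets. Its subunits did not share a direction. The scaffold PPP2R1A had the lowest estimate of the members and stood at -0.70 ± 0.26, a pregnant level 0.616 times the cyclic one. Its ratios were -0.60, -1.78, -0.14 and -0.27 on arrays 1 to 4. In normalized log2 intensity the pregnant animals were at 10.59, 10.47, 11.43 and 11.29 and the cyclic animals at 11.18, 12.25, 11.58 and 11.56. Each pregnant animal was below its partner, the groups overlapped, and the cyclic animal of array 2 was the brightest of the 8. PPP2R1A, PPP1R10, MAPK12, PRKAB2 and PPP2R5D were each read by 1 probe.

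PPP2R2B, a B-type regulatory subunit, went the other way at 0.29 ± 0.10. Its ratios were 0.35, 0.21, 0.47 and 0.15. Pregnant animals were at 11.65, 11.57, 11.66 and 11.87 and cyclic animals at 11.29, 11.36, 11.19 and 11.72. Only the cyclic animal of array 4 reached into the pregnant range, and the spread between arrays was small, an SD of 0.14. Its 1 other, dimmer probe had the same sign at 0.17, but was at -0.05 on array 4. The catalytic subunit PPP2CA stood at 0.28 ± 0.11, outside the looser count, with 0.34, 0.51, 0.01 and 0.27 on the 4 arrays. All of its 6 probes had estimates above 0, from 0.18 to 0.51. Over those probes the medians on arrays 1 to 4 were 0.39, 0.56, 0.06 and 0.13, and array 3 held the 1 ratio below 0. PPP2CA entered the looser count with scale normalization (0.27), without the filter on dim probes and in the separate-channel fit (an unchanged 0.28 in both).

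PPP2R5D, a regulatory subunit of the B56 family, stood at -0.31 ± 0.12 and was outside the looser count too. It entered the count at -0.45 without array 4 and at -0.30 with scale normalization. Its estimate was an unchanged -0.31 in the other settings where it entered. These were no filter on dim probes, the mean over probes, no dye term and the separate-channel fit. With the mean over probes its unadjusted limma p moved only from 0.0516 to 0.0495. Its ratios were -0.27, -0.61, -0.30 and -0.08. The pregnant animals lay between 10.99 and 11.11 and the cyclic animals between 11.19 and 11.64. These groups did not overlap, which held for 2 of the 42 members (4.76%) and for 1.89% of all features, 1% with the pregnant group higher and 0.884% with it lower. PPP2R5A, of the same family, stood at -0.11 ± 0.17, with -0.81 on array 1 and 0.39 on array 2, and its 1 other probe had the opposite sign. PPP2R2A, the widely expressed relative of PPP2R2B, stood at -0.02 ± 0.10. By the other dye reading the estimates of PPP2CA, PPP2R1A and PPP2R5D would change sign and that of PPP2R2B would not.

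Within an array, PPP2CA exceeded PPP2R1A in log2 ratio by 0.93, 2.29, 0.16 and 0.54 on arrays 1 to 4. PPP2R2B exceeded PPP2R5D by 0.62, 0.82, 0.77 and 0.23. These differences were above 0 on 4 of 4 arrays. That follows from the single genes, since PPP2CA and PPP2R2B were above 0 and PPP2R1A and PPP2R5D below 0 on each array. By the other dye reading the differences on arrays 2 and 4 would be below 0. The pairs were chosen after the values were seen, and the differences are given without a test.

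**Figure D3:**
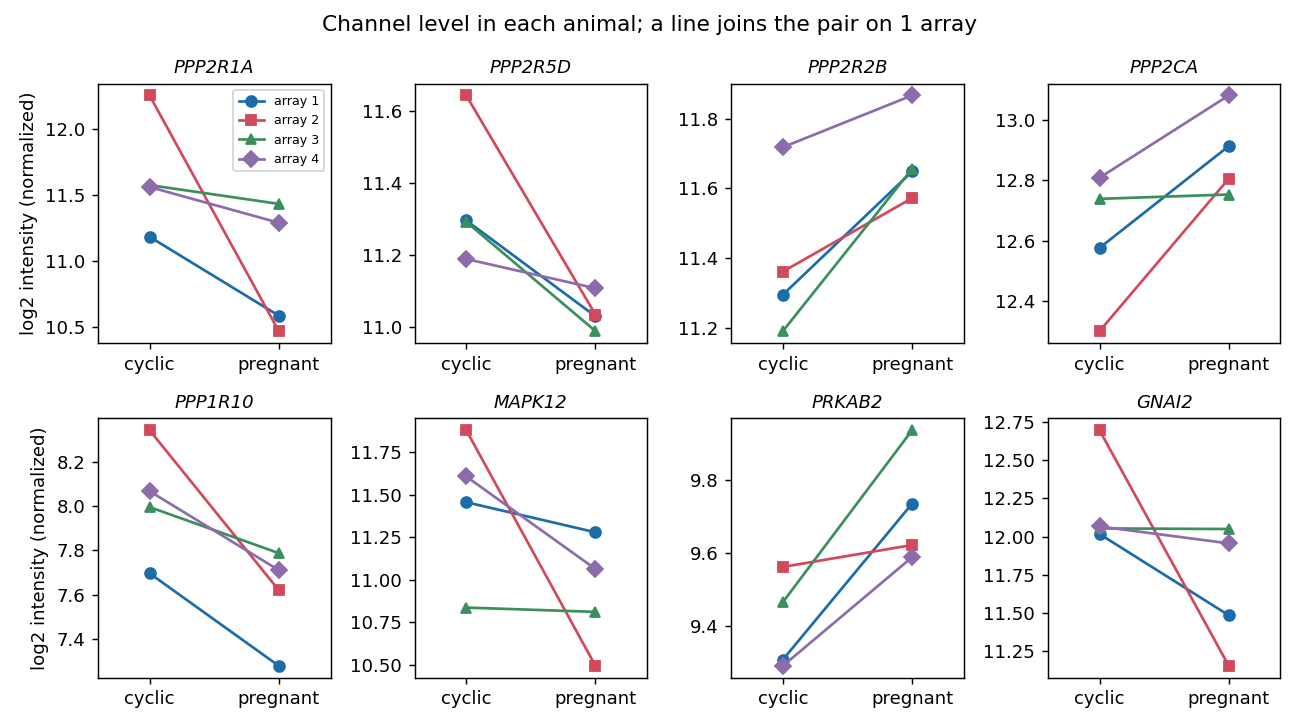
Normalized log2 intensity of 8 genes in the cyclic and the pregnant animal of each array, with a line joining the pair and a separate y axis per gene. All lines of PPP2R1A, PPP2R5D, PPP1R10, MAPK12 and GNAI2 go down and all lines of PPP2R2B, PPP2CA and PRKAB2 go up, some of them barely, and the line of array 2 is the steepest in PPP2R1A, PPP2R5D, PPP2CA, PPP1R10, MAPK12 and GNAI2.

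Of the PP1 phosphatase, whose catalytic subunits are steered by many partner proteins, PPP1R10 had the lowest p of all members. PPP1R10 is a nuclear targeting subunit also called PNUTS. It stood at -0.43 ± 0.11, or 0.743 times the cyclic level, with -0.42, -0.73, -0.21 and -0.36 on arrays 1 to 4. Pregnant animals were at 7.28, 7.62, 7.79 and 7.71 and cyclic animals at 7.70, 8.34, 8.00 and 8.07. The ranges overlapped through the low pair on array 1. It lies near the dim end of the array, although all 8 channels were above background.

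The other PP1 partners had smaller estimates. PPP1R11, an inhibitor, stood at -0.19 ± 0.12, with -0.61 on array 2 and the other arrays between -0.10 and -0.01. PPP1R14A, the inhibitor CPI-17 of smooth muscle, stood at -0.21 ± 0.11, and its relative PPP1R14B at -0.12 ± 0.11. PPP1R8, a nuclear inhibitor, stood at -0.11 ± 0.12. PPP1R3D, which targets PP1 to glycogen, was at 0.08 ± 0.11 and PPP1R18 at -0.08 ± 0.10, above background in 1 pregnant and 3 cyclic channels. PPP4R3B, a subunit of PP4, was at -0.06 ± 0.12. Of the 13 regulatory subunits of all phosphatases 11 had estimates below 0, where 54.4% of all features had, and their median was -0.11. The looser count held 1 of the 13 on the higher side and 2 on the lower side, against 2.93% and 4.1% of all features. By the other dye reading 4 of 13 were below 0, with a median of 0.0995.

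The 7 catalytic subunits had a median of 0.01 with 3 below 0, and none was in the looser count. By the other dye reading 5 were below 0, with a median of -0.14. PPP1CA stood at -0.16 ± 0.11 and PPP1CC at -0.03 ± 0.13. PPP1CB was at 0.04 ± 0.12 by its brightest probe, with -0.25, 0.45, -0.03 and -0.03. Its 10 probes gave estimates from -0.04 to 0.13, but single arrays differed widely between them. On array 1 they ran from -1.33 to 0.18 and on array 2 from 0.24 to 1.35, and all 10 were above 0 on array 2. The catalytic subunits of calcineurin, the calcium-dependent phosphatase, stood close to 0, with PPP3CA at 0.01 ± 0.11 and PPP3CB at -0.01 ± 0.10. PPP6C was at 0.06 ± 0.10, and its 1 other probe had the opposite sign.

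Of the G alpha subunits, 5 of 6 had estimates below 0, where 54.4% of all features had, and none was in the looser count. By the other dye reading all 6 were above 0, with a median of 0.0435. GNAI2, a Gi subunit, was lowest at -0.55 ± 0.25, with -0.53, -1.54, -0.0038 and -0.11 on the 4 arrays. Pregnant animals were at 11.49, 11.15, 12.05 and 11.96 and cyclic animals at 12.02, 12.70, 12.05 and 12.07. Array 2 was far below the others and array 3 was close to 0. The 3 probes of GNAI2 had similar estimates, from -0.58 to -0.54, and on array 2 all 3 were between -1.76 and -1.38. Without array 4 GNAI2 stood at -0.90, GNA11 at -0.48 and GNAI3 at 0.51, and all 3 entered the looser count, as GNAI2 did in the separate-channel fit.

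GNAI3, its close relative, had the opposite sign at 0.29 ± 0.18, with 0.52, 0.70, 0.13 and -0.20. The ratio of GNAI3 exceeded that of GNAI2 by 1.05, 2.24 and 0.14 on arrays 1 to 3 and was 0.09 lower on array 4 (a difference of -0.09). GNA11, a Gq class subunit, stood at -0.27 ± 0.17, with -0.89 on array 2, and GNAQ at -0.02 ± 0.10, with the smallest spread of the 42 members (SD 0.07). GNA14, of the same class, stood at -0.18 ± 0.21.

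GNAS, which encodes the Gs alpha subunit from an imprinted locus with several first exons, was read by 16 probes. The brightest stood at -0.21 ± 0.11, with 0.01, -0.27, -0.34 and -0.23. All 16 probes had estimates below 0, from -0.53 to -0.11 with a median of -0.24. Below 0 were 8 of the 16 probes on array 1, 15 on array 2, 14 on array 3 and 16 on array 4. The 11 probes brighter than a mean log2 intensity of 15 had a median estimate of -0.18 and the 5 dimmer ones -0.41, a comparison chosen after the values were seen. The 16 probes were named by 2 RefSeq transcripts. Those of 1 transcript, at -0.41 and -0.39, were all among the dimmer probes, so the bright and dim sets differ in transcript too. Averaged over its probes GNAS stood at -0.28 and entered the looser count. With background parameters from all spots its brightest probe turned to 0.20. GNG12, the 1 G gamma subunit, stood at -0.09 ± 0.10, with -0.52 and -0.36 on arrays 1 and 3 and 0.33 and 0.18 on arrays 2 and 4.

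**Figure D4:**
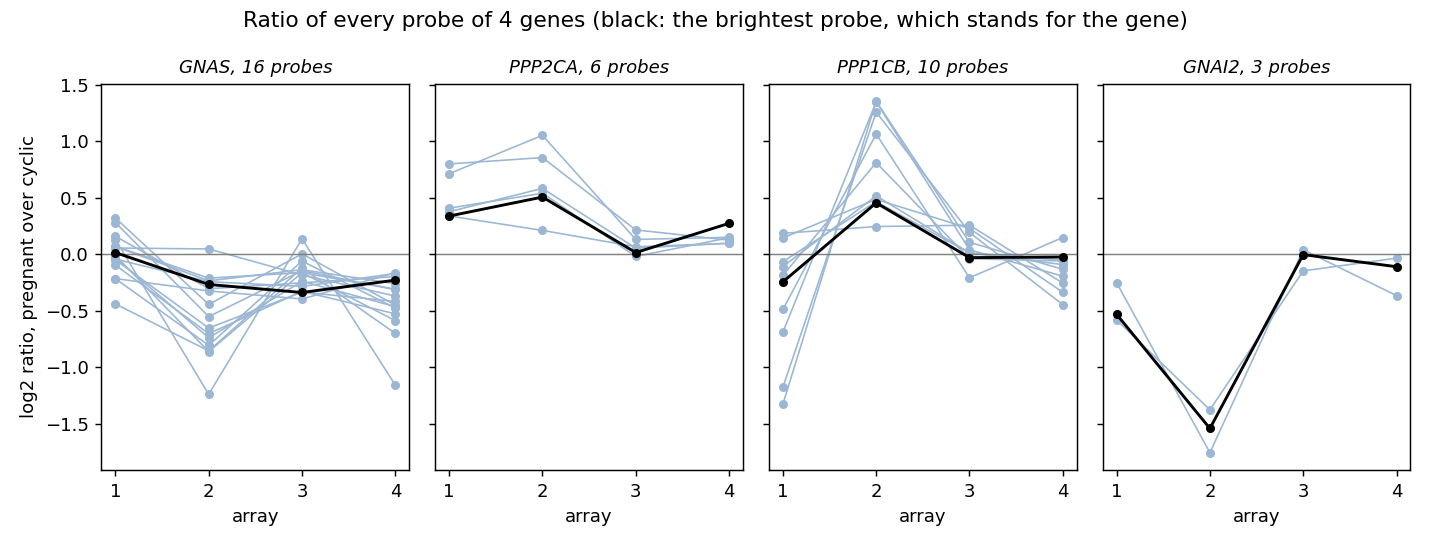
Log2 ratio of pregnant over cyclic on arrays 1 to 4 for every probe of GNAS, PPP2CA, PPP1CB and GNAI2, with a line joining the values of 1 probe and the brightest probe in black. GNAI2 probes lie together on each array, all PPP1CB probes are above 0 on array 2, and they spread widely on array 1.

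The 3 RGS genes varied more between arrays than most features. RGS4, RGS5 and RGS2 belong to the small R4 class; RGS4 and RGS5 act on Gi and Gq class subunits and RGS2 mainly on Gq. RGS4 had the highest estimate of the members at 0.40 ± 0.22, with 0.37, -0.49, 1.29 and 0.42. Its cyclic animals were between 10.13 and 10.68 and its pregnant animals between 9.68 and 11.42, so the pregnant group held both the lowest and the highest animal. Without array 1 it stood at 0.63 and entered the looser count.

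RGS5, which is abundant in pericytes of small vessels, stood at -0.07 ± 0.28, with -0.18, 1.21, -1.16 and -0.13, and its 1 other probe had the same sign. Of 4 endothelial markers PECAM1, CDH5 and VWF were on the array, all 3 above background in every channel. Their mean ratios were -0.09, 0.49, -0.30 and 0.02 on the same arrays, but the 3 did not share a direction on arrays 1, 2 and 4. CDH5 was at 0.63, 1.41, -0.06 and 0.06. PECAM1 was at -0.62, 0.25, -0.34 and -0.04, and VWF at -0.29, -0.18, -0.50 and 0.03. These are markers of endothelial cells and not of pericytes, for which no marker was listed. The part of the endothelial markers in the RGS5 values was not tested. RGS2 stood at -0.02 ± 0.22, with 0.86, -0.01, -0.13 and -0.80. The pregnant animal of array 1 was the brightest of the 8 at 15.90, the others lying between 14.49 and 15.28. RGS2 is inducible, as are the immediate-early genes FOS and JUN, the 2 of 6 such markers on the array. FOS was at 1.22, -1.11, -1.88 and 0.04 and JUN at 0.07, 0.45, -0.62 and 0.46 on those arrays, and their part was not tested. In spread between arrays RGS5 was at the 98.5th percentile of all features, RGS4 at the 95.4th and RGS2 at the 93.9th.

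On the cAMP branch, PRKAR1A, the type I regulatory subunit that holds protein kinase A inactive, stood at 0.11 ± 0.10, with -0.02, 0.43, -0.19 and 0.20. All 4 of its probes had estimates above 0, from 0.09 to 0.23. The cAMP-specific phosphodiesterases PDE4A and PDE4B stood at -0.19 ± 0.12 and -0.25 ± 0.13. By its brightest probe PDE4A was below 0 on 4 of 4 arrays (-0.46, -0.25, -0.03 and -0.03). Its 3 other, dimmer probes were close to 0, at -0.01, -0.02 and 0.04. Averaged over its probes PDE4A stood at -0.05. PDE4B was at -0.37, -0.47, 0.18 and -0.34 by its brightest probe. Its 2 other, dimmer probes were at -0.03 and -0.07, and averaged over its probes it stood at -0.12. With background parameters from all spots its brightest probe was at -0.016. PDE3A, inhibited by cGMP, stood at 0.17 ± 0.15 and its 1 other probe agreed in sign. PDE6C, known as the cone phosphodiesterase of the retina, was above background in all 8 channels and had the widest spread of the members, with 0.59, 1.01, -1.67 and 0.12 around an estimate of 0.01 ± 0.39. Without array 3, PDE6C stood at 0.58 and PDE4B, by its brightest probe, at -0.39, and both entered the looser count. Without array 1 PDE6C turned to -0.55, outside the count.

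AMP-activated kinase, a sensor of cellular energy, is made of a catalytic alpha, a scaffold beta and a nucleotide-binding gamma subunit. PRKAB2, a beta subunit, stood at 0.31 ± 0.10, or 1.24 times the cyclic level, with 0.43, 0.06, 0.47 and 0.30. Pregnant animals were at 9.74, 9.62, 9.94 and 9.59 and cyclic animals at 9.31, 9.56, 9.46 and 9.29. The groups did not overlap, though the lowest pregnant and the highest cyclic animal nearly met. PRKAB1, the other beta subunit, was also above 0 on 4 of 4 arrays by its brightest probe, at 0.15 ± 0.10. Its 1 other, dimmer probe was close to 0 at 0.02, with 0.42, -0.28, 0.33 and -0.40. The gamma subunit PRKAG1 stood at -0.19 ± 0.10, with 0.10, -0.39, -0.08 and -0.40, and the catalytic PRKAA2 at -0.01 ± 0.09. PRKAB2 exceeded PRKAG1 by 0.33, 0.45, 0.55 and 0.70 on arrays 1 to 4, a pair chosen after the values were seen and given without a test.

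MAPK12, a stress-activated MAP kinase, was the 1 MAP kinase among the members. It stood at -0.53 ± 0.16, or 0.692 times the cyclic level, with -0.18, -1.38, -0.03 and -0.54. Pregnant animals were at 11.28, 10.50, 10.81 and 11.06 and cyclic animals at 11.46, 11.88, 10.84 and 11.61. All 4 pregnant animals were below their partners, array 3 barely, and the groups overlapped. The kinases MAPKAPK3 and MAPKAPK5, which MAP kinases activate, stood at -0.07 ± 0.12 and 0.03 ± 0.12. All 3 probes of MAPKAPK3 had estimates below 0, with -0.48 on array 2 by the brightest.

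Each of the 5 genes in the looser count left it with the loss of single arrays, while the estimate kept its sign. PPP2R1A stood at -0.32 without array 2 and at -0.58 without array 1. MAPK12 stood at -0.32 and -0.49 without those arrays, and PPP1R10 at -0.34 and -0.38. Arrays 1 and 2 were the ones whose loss took these 3 genes out of the count. PRKAB2 left it without array 1, 3 or 4, at 0.33, 0.30 and 0.26, and PPP2R2B without any 1 array. With background parameters estimated from all spots, PPP1R10 stood at -0.13, PPP2R1A at -0.54 and PRKAB2 at 0.21, and all 3 left the count with PPP2R2B. With each array centred on its median PRKAB2 (0.23) and PPP2R2B left it, and without the dye term MAPK12 did. PPP2R1A and PPP2R2B also left it with the scanner software's processed signals and in the authors' deposited table. With the mean over probes PPP2R2B left it at 0.23. With pregnant RNA in Cy3 on all arrays, the 3 lower genes turned to 0.33 for PPP2R1A, 0.43 for MAPK12 and 0.11 for PPP1R10. PRKAB2 and PPP2R2B then stayed above 0, at 0.14 and 0.11, outside the looser count.

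Neighbouring genes of the same pathways were drawn from lists written from textbook knowledge. Of 30 genes of the cAMP response and of kinase anchoring, 7 could be tested, 4 of them above 0, with a median of 0.05. CREB3, a transcription factor of the CREB family, stood at -0.27 ± 0.10 and was the 1 member of that list in the looser count. PKIA, the inhibitor peptide of protein kinase A, stood at 0.21 ± 0.13 with 0.68 on array 2. Of 44 genes of the Ras and MAP kinase cascade, 6 could be tested, 5 of them below 0, with a median of -0.14. ARAF, a Raf kinase, stood at -0.38 ± 0.14 in the looser count, with -0.98 on array 2. DUSP6, a phosphatase that acts on ERK, stood at -0.28 ± 0.12 and MAP2K1 at 0.20 ± 0.12.

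Of 34 genes of receptor desensitisation and phospholipase signalling, 6 were tested, 5 of them below 0. None was in the looser count, and their median was -0.05. GRK2, a kinase that desensitises receptors, stood at -0.04 ± 0.10. SET and ARPP19, inhibitors of PP2A or proteins that become so, were the 2 of 16 other phosphatase genes that could be tested, at 0.06 ± 0.10 and 0.07 ± 0.12. By the other dye reading 6 of the 7 cAMP genes, 3 of the 6 cascade genes, 5 of the 6 desensitisation genes and both phosphatase genes were above 0. No gene of these 4 lists passed limma's adjusted threshold.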

How the data were processed

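Scanner output is from version 10.7.3.1 of Agilent's Feature Extraction software at a 5 micron scan, per the file headers. For each array the authors deposited median pixel intensities of spots and local background in both channels, with processed intensities. The authors' deposited table holds log2 ratios that equalled the processed red over green signal, turned to pregnant over cyclic by the label fields, within 0.001 for all 43553 probes spotted once. Its column medians were 0.15, -0.00956, 0.0649 and -0.0724, and no statement of its centring was found.

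With limma 3.58.1 under R 4.3.3 (jsonlite 2.0.0 for the labels), intensities were corrected by normexp (offset 50, parameters without 377 to 3480 spots per channel that the scanner software marked as outliers) and normalized by loess (span 0.3, 1417 control spots at weight 0). Between 26 and 63 outlier spots per array were left out, and 0 spots were saturated on each array. Probes above background in at least 4 of 8 channels were kept, 25193 of 43603. Probes were named by RefSeq accession (Sscrofa11.1), 6700 in all, and the brightest probe stood for a gene. Levels per animal are channel values after loess and quantile normalization of average intensities. lmFit and eBayes were fitted with a dye term to all features, and tested on simulated data.

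Members and lists were chosen with earlier results of these data known. Members in the looser count or with 1 sign on 4 arrays and a fold of at least 1.2 were given in full, with the highest and lowest of each role and preset core genes. Other members and pathway genes that are named were chosen after their values were seen. Alternatives changed the background, normalization, filter, probe rule, dye term, dye orientation and arrays, 16 settings in all.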

Additional observations from a re-analysis of the deposited data

Results flagged for a closer look

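PPP1R11 was the 1 of 43 items tested (42 genes and the median of the members) in which a single array stood apart from the other 3 by Dixon's criterion. Array 2 was at -0.61, and the gap to the nearest array was 0.855 of the whole range, above the 95% critical value for 4 arrays. Chance alone flags about 1 in 20 such groups. Array 2 was also the widest array over all features.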

How the results depend on the processing

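Over 16 alternative settings no member passed limma's adjusted threshold, and over all features 2 did with a background offset of 10 and 3 in the separate-channel fit, against 0. The looser count over all features was 1327 and became 488 with background parameters from all spots and 618 to 2179 with 1 array left out, the highest without array 4 and the lowest without array 2. Higher members numbered 2, but 0 with background parameters from all spots and with median centring. They numbered 1 with processed signals, the authors' table, the mean over probes, a single dye orientation or any 1 array left out. With scale normalization, without the filter on dim probes (45 members) and with separate channels they numbered 3. Lower members numbered 3, but 1 with background parameters from all spots and with a single dye orientation. They numbered 2 with processed signals and the authors' table, and 4 with scale normalization and without the filter on dim probes. With the mean over probes and with separate channels they numbered 5. With 1 array left out they numbered 0 (without array 1 or 2) to 6 (without array 4). The members' median of -0.06 was -0.024 with background parameters from all spots, -0.11 with median centring and 0.0576 with a single dye orientation. The single orientation reversed MAPK12 to 0.43, PPP1R10 to 0.11 and PPP2R1A to 0.33, and changed the sign of 26 of 42 members. The causes were not tested. Between 0 and 9 members changed sign under the other settings. Signal over background limited the members to 42 of 45 genes, and GNA14 and PPP1R18 were not above background in all 8 channels.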

Other observations

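Red exceeded green, or green exceeded red, on all 4 arrays for 6 of the 42 members, 14.3% against 20% of all features. Red was higher for GNG12, PPP2R2A and PRKAR1A, and green for MAPKAPK3, PPP1R3D and PRKAA2. If pregnant RNA had carried Cy3 on all arrays, as the labelling protocol's text reads, GNG12 would stand at -0.35 ± 0.10 and PPP1R3D at 0.26 ± 0.10, the 2 members in the looser count under that reading.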
